A study of Arabidopsis thaliana with 2 samples.

Results

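The genes described are 9 numbered lipid transfer protein genes of Arabidopsis thaliana, LTP1 to LTP8 and LTP12, out of 23667 loci with a read in either library. They were taken by name and locus, as a family whose earlier results in these data were known. Reads were summed over the transcript models of each locus, and a locus that was not listed was taken as 0 reads. RNA sequencing was made on total RNA of whole seedlings grown for 12 days at 20 °C in long days, at 90 µmol of photons per square metre and second, on plates of 0.5X GM medium and without treatment. There were 2 libraries: 1 from seedlings labelled FMO5-OE T1 in the Col-0 background, and 1 from wild-type Col-0, the standard laboratory accession. FMO5-OE was taken to mean overexpression of FMO GS-OX5 (AT1G12140), a flavin-containing monooxygenase of the group that oxygenates the side chains of glucosinolates. The promoter of the construct, the meaning of T1, the number of lines and the number of seedlings pooled are not stated in the labels. With 1 library per genotype there is no replicate and no test between genotypes, and genotype cannot be told apart from any other difference between the 2 seedling samples.

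Plant lipid transfer proteins are small, secreted proteins in which conserved cysteines form disulfide bridges around a hydrophobic cavity. The cavity holds fatty acids and other lipids, and the proteins are found in the cell wall and the cuticle, mostly of epidermal cells. LTP1 is a cell wall protein of the epidermis, LTP2 has a part in the integrity of the hypocotyl cuticle, LTP3 and LTP4 respond to abscisic acid and drought, LTP5 acts in pollen tube growth, and LTP12 is known from the tapetum of the anther.

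The members lie on chromosomes 2, 3 and 5, and 6 of them form neighbouring pairs. On the TAIR10.1 assembly LTP2 (AT2G38530, chr2:16128176-16129399) and LTP1 (AT2G38540, chr2:16130290-16131240) follow each other on the plus strand with 890 bases between them. LTP12 (AT3G51590, chr3:19135619-19136675) and LTP5 (AT3G51600, chr3:19138338-19139423) lie on the minus strand, 1662 bases apart. LTP4 (AT5G59310, chr5:23924990-23925957, minus strand) and LTP3 (AT5G59320, chr5:23928954-23929816, plus strand) point away from each other across 2996 bases. LTP7 (AT2G15050, chr2:6518749-6521549, plus strand), LTP8 (AT2G18370, chr2:7980532-7981868, plus strand) and LTP6 (AT3G08770, chr3:2664069-2664888, minus strand) stand alone. The coding sequences are 339 to 372 bases long. Over the 36 possible pairs of members the identity of the aligned coding bases had a median of 60.2% and ranged from 54.3% to 86.7%. It was highest for LTP3 and LTP4 (86.7%) and for LTP1 and LTP2 (82.4%), while LTP5 and LTP12, although neighbours, shared 59.0%.

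Reads were 49 bases long, so stretches that neighbours share bear on how far reads could be assigned to one gene. The windows below are 49 bases of coding sequence around the longest run that the neighbours share, from the RefSeq annotation of TAIR10.1, with bases that differ between the neighbours in capitals. For LTP1 and LTP2, other windows differed at fewer bases than the one shown.
LTP1: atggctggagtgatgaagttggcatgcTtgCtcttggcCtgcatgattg
LTP2: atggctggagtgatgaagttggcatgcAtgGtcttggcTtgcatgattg
LTP3: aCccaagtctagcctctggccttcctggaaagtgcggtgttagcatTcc
LTP4: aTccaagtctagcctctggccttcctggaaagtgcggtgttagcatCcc
LTP5: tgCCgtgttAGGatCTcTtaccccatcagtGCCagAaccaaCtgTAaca
LTP12: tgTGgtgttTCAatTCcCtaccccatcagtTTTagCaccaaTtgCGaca
The longest identical run was 27 bases for LTP1 and LTP2, 44 for LTP3 and LTP4 and 12 for LTP5 and LTP12. No stretch of 49 bases in an annotated transcript of a member occurred in a transcript of another locus or a second time in the genome. With 2 mismatches allowed, 7 of 309 windows of the LTP1 coding sequence matched LTP2, 8 of 300 windows of LTP3 matched LTP4, and none of LTP5, LTP6, LTP7, LTP8 or LTP12 matched another member. How many mismatches the authors' alignment allowed is not known.

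The FMO5-OE T1 library held 12.21 M counted reads and the Col-0 library 11.56 M. FMO GS-OX5, the gene named in the label, had 1379 reads (109 CPM) in FMO5-OE T1 and 28 reads (2.50 CPM) in Col-0. Levels are in CPM, read counts divided by the TMM-scaled library size, and 1 read was worth 0.0792 CPM in FMO5-OE T1 and 0.0894 CPM in Col-0. Intervals given below are 95% intervals from the read counts alone. They say nothing of the spread between plants.

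LTP1 and LTP5 made up most of the transcripts of the group. Together they took 87.0% of the 16208 member reads in FMO5-OE T1 (Wilson interval 86.4% to 87.5%) and 88.3% of the 18615 member reads in Col-0 (87.8% to 88.7%). LTP1 ranked 130th of the nuclear loci by CPM in FMO5-OE T1 and 109th in Col-0. To compare genes, levels were divided by the length of the transcript model with most reads. LTP1 then stood at 962 CPM per kb in FMO5-OE T1 and 1228 CPM per kb in Col-0. LTP5 followed with 582 CPM per kb in FMO5-OE T1 and 801 CPM per kb in Col-0. LTP2 came next, at 115 CPM per kb in FMO5-OE T1 and 181 CPM per kb in Col-0, ahead of LTP8, at 88.0 CPM per kb in FMO5-OE T1 and 65.9 CPM per kb in Col-0. The level of LTP2 was thus 1.31 times that of LTP8 in FMO5-OE T1 (1.19 to 1.44) and 2.75 times in Col-0 (2.48 to 3.05).

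The other members were far lower, between 5.79 and 17.6 CPM per kb in FMO5-OE T1 and between 5.11 and 15.5 CPM per kb in Col-0. Per full model length they followed in the order LTP7, LTP6, LTP3 and LTP4 in both libraries. Per base with reads, LTP6 came before LTP7 in both, as few bases of LTP6 held all its reads. The depth of LTP6 per base with reads was 32.5 reads in FMO5-OE T1 and 27.1 in Col-0. That of LTP3 was 6.61 in FMO5-OE T1 and 6.09 in Col-0. Per full model length, LTP6 and LTP3 could not be ordered by their counts in either library. The ratio was 1.27 in FMO5-OE T1 (0.930 to 1.73) and 1.28 in Col-0 (0.925 to 1.78). LTP7 over LTP6 was 1.45 in FMO5-OE T1 (1.11 to 1.91), while in Col-0 the ratio of 1.26 had an interval that held 1 (0.943 to 1.70). LTP12 (AT3G51590) had 0 reads in both libraries. A count of 0 allows up to 3 reads, or 0.238 CPM in FMO5-OE T1 and 0.268 CPM in Col-0.

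**Figure D1:**
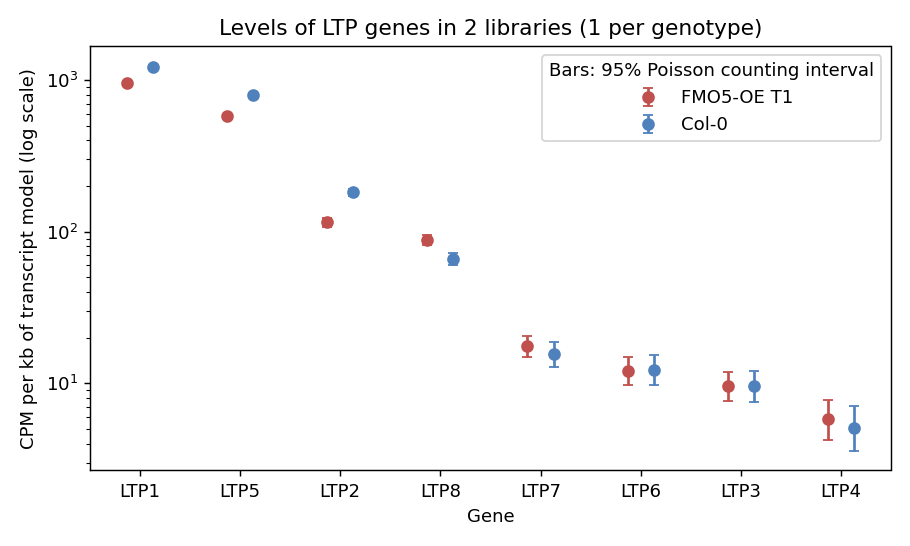
Levels of the 8 detected LTP genes in CPM per kb of transcript model, on a log axis, in the FMO5-OE T1 library (red) and the Col-0 library (blue). Points are single libraries, and bars are 95% Poisson counting intervals. LTP1, LTP5 and LTP2 were lower in FMO5-OE T1 and LTP8 was higher, while the intervals of the 4 lowest genes overlapped between the libraries.

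The tandem pair LTP1 and LTP2 was lower in FMO5-OE T1 than in Col-0, and LTP2 differed more than LTP1. LTP1 (AT2G38540) had 8569 reads (679 CPM) in FMO5-OE T1 and 9698 reads (867 CPM) in Col-0. The FMO5-OE T1 level was 0.783 of the Col-0 level (0.760 to 0.806), a log2 ratio of -0.35. LTP2 (AT2G38530) had 974 reads (77.2 CPM) in FMO5-OE T1 and 1359 reads (122 CPM) in Col-0. This was 0.635 of the Col-0 level (0.584 to 0.690), a log2 ratio of -0.65 and the lowest among the members. LTP2 also took a smaller part of the reads of the pair, 10.2% in FMO5-OE T1 (9.61% to 10.8%) against 12.3% in Col-0 (11.7% to 12.9%), a share that does not depend on the scaling between libraries. Summed, the pair had 0.765 of the Col-0 level (0.744 to 0.786), and the sum is not affected by reads exchanged between the neighbours. The models of both genes were covered over most of their length, LTP1 over 94.2% in FMO5-OE T1 and 93.1% in Col-0, and LTP2 over 93.0% in FMO5-OE T1 and 96.0% in Col-0. The next expressed gene downstream of the pair, AT2G38550, had a log2 ratio of -0.21, and the one after it, the transcription elongation factor gene TFIIS (AT2G38560), of 0.32.

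LTP5, a secreted protein known from pollen and pistil and second in abundance here, was lower as well. LTP5 (AT3G51600) had 5525 reads (438 CPM) in FMO5-OE T1 and 6738 reads (603 CPM) in Col-0. The level was 0.727 of that in Col-0 (0.701 to 0.753), a log2 ratio of -0.46. Relative to LTP1 it was slightly lower too: LTP5 took 39.2% of the reads of these 2 genes in FMO5-OE T1 (38.4% to 40.0%) and 41.0% in Col-0 (40.2% to 41.7%). Its neighbour LTP12 had no read in either library, so that all reads of this pair came from LTP5. The annotation holds a single LTP12 model, and 542 of its 542 stretches of 49 bases were found at no other place. Of 10 tapetum and anther markers 5 had no read in either library, namely A9, A6, DYT1, MS1 and MYB80, and 2 reached 5 CPM, the polyketide synthase gene PKSA and the reductase gene TKPR1.

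The divergent pair LTP3 and LTP4 was low in both libraries and differed by no more than counting error. LTP3 (AT5G59320), a target of MYB96 in freezing and drought tolerance, had 82 reads (6.50 CPM) in FMO5-OE T1 and 73 reads (6.53 CPM) in Col-0. The ratio was 0.995 (0.717 to 1.38). LTP4 (AT5G59310) had 46 reads (3.65 CPM) in FMO5-OE T1 and 36 reads (3.22 CPM) in Col-0, a ratio of 1.13 (0.716 to 1.80). Differences within these intervals were not detectable at this depth. LTP4 took 35.9% of the reads of the pair in FMO5-OE T1 (28.1% to 44.5%) and 33.0% in Col-0 (24.9% to 42.3%), and these intervals overlap. The pair as a whole stood at 1.04 of its Col-0 level (0.800 to 1.36). Among 8 genes of the abscisic acid response, a hormone to which LTP3 and LTP4 are known to respond, 4 reached 5 CPM: RD29A had a log2 ratio of -0.68, HAI1 of 0.12, ABI1 of 0.16 and MYB96 of 0.28. The fold intervals of HAI1 (0.768 to 1.60) and MYB96 (0.873 to 1.83) held 1. Those of RD29A (0.557 to 0.686) and ABI1 (1.02 to 1.23) did not.

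LTP6 and LTP7 also lay within counting error. LTP6 (AT3G08770) had 91 reads (7.21 CPM) in FMO5-OE T1 and 82 reads (7.33 CPM) in Col-0, a ratio of 0.983 (0.722 to 1.34). LTP7 (AT2G15050) had 148 reads (11.7 CPM) in FMO5-OE T1 and 116 reads (10.4 CPM) in Col-0, a ratio of 1.13 (0.881 to 1.45). Both are counted on part of their bases. Only model 1 of LTP6 was listed, and its reads covered 137 of 596 bases in FMO5-OE T1 and 148 in Col-0. The annotation also holds a model 2, and reads absent from it could cover 42.7% of the annotated model 1. Over the bases with reads the depth of LTP6 was 32.5 reads per base in FMO5-OE T1 and 27.1 in Col-0. That of LTP7 model 2 was 13.9 in FMO5-OE T1 and 10.6 in Col-0, and that of LTP3 was 6.61 in FMO5-OE T1 and 6.09 in Col-0. The level of LTP6 per full length rests on reads from these bases only.

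LTP7 was split over 3 models. Model 2 took 60.8% of its reads in FMO5-OE T1 (52.8% to 68.3%) and 60.3% in Col-0 (51.2% to 68.8%). Model 1 took 25% in FMO5-OE T1 (18.7% to 32.5%) and 28.4% in Col-0 (21.0% to 37.2%). In the annotation model 1 keeps the intron and has 2801 bases, but the counted model 1 had 518 bases. Its share is therefore not a measure of intron retention. Model 3 took 14.2% in FMO5-OE T1 (9.47% to 20.7%) and 11.2% in Col-0 (6.67% to 18.2%). The intervals of all 3 shares overlap between the libraries. Reads covered 318 of 668 bases of model 2 in FMO5-OE T1 and 324 in Col-0, and 153 of 518 bases of model 1 in both libraries, so the shares rest on part of each model. Whether reads that fit several models were left out was not tested.

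LTP8 was the only member above its Col-0 level by more than counting error. LTP8 (AT2G18370) had 773 reads (61.3 CPM) in FMO5-OE T1 and 513 reads (45.9 CPM) in Col-0. The FMO5-OE T1 level was 1.34 times the Col-0 level (1.19 to 1.496), a log2 ratio of 0.41. Reads covered 97.8% of its model in both libraries. Against LTP1 the difference was larger: LTP8 took 8.27% of the reads of LTP1 and LTP8 in FMO5-OE T1 (7.73% to 8.85%) and 5.02% in Col-0 (4.62% to 5.46%). In coding bases LTP8 had 58.2% identity with LTP1, and LTP6, with a ratio of 0.983, had 57.4%. Whether sequence identity goes with the ratios was not tested.

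**Figure D2:**
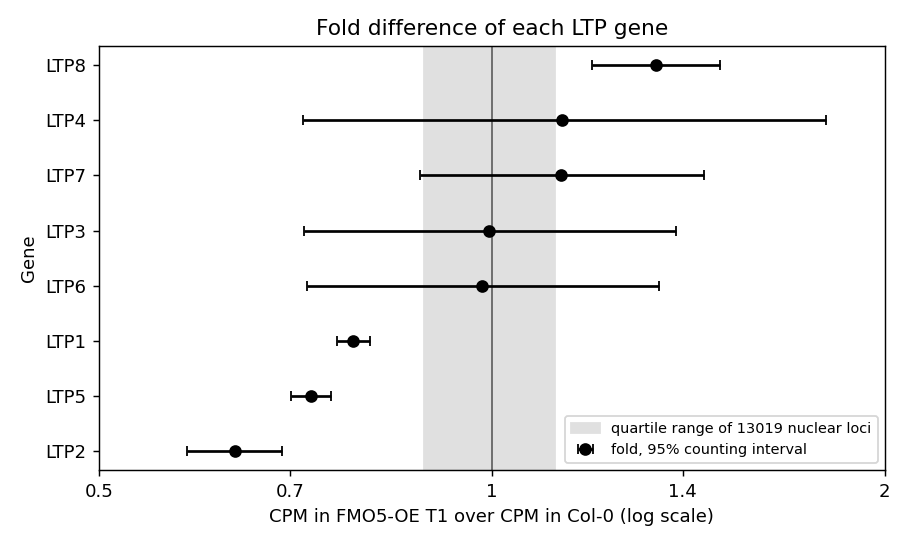
CPM in FMO5-OE T1 over CPM in Col-0 for the 8 detected LTP genes, on a log axis. Points are the ratio of 2 single libraries, bars the 95% counting interval, and the grey band the quartile range of all nuclear loci at 5 CPM or more. LTP2, LTP5 and LTP1 lie below the band, LTP8, LTP4 and LTP7 lie above it, and the intervals of LTP3, LTP4, LTP6 and LTP7 hold 1. The band is of ratios of CPM + 1, unlike the points. On that scale LTP4, which is below 5 CPM, had a log2 ratio of 0.14, inside the band with its upper quartile of 0.16.

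**Figure D3:**
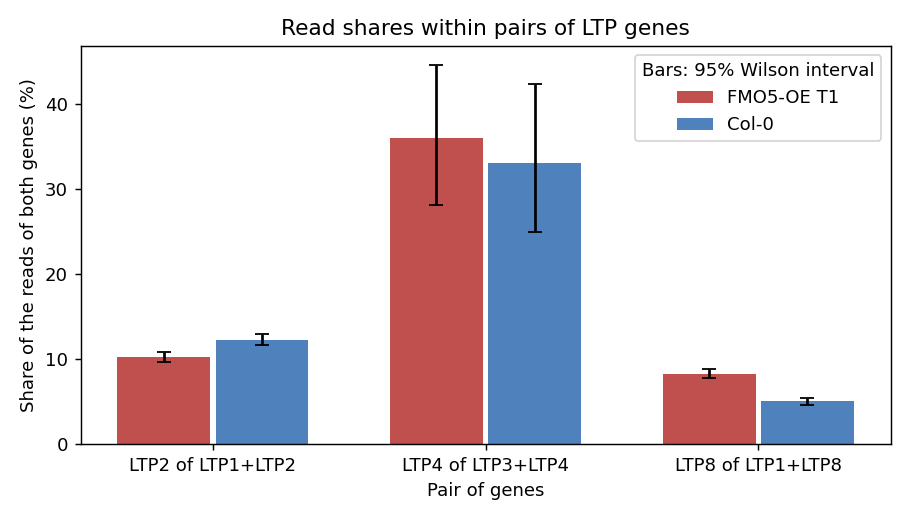
Share of reads within 3 pairs of LTP genes in the FMO5-OE T1 library (red) and the Col-0 library (blue), in percent of the reads of both genes, with 95% Wilson intervals as bars. LTP2 took 10.2% of its pair in FMO5-OE T1 and 12.3% in Col-0, LTP4 took 35.9% in FMO5-OE T1 and 33.0% in Col-0, and LTP8 took 8.27% of the reads of LTP1 and LTP8 in FMO5-OE T1 and 5.02% in Col-0. LTP1 and LTP8 are not neighbours, and their share follows from the ratios of both genes.

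The bases before the annotated starts of the most abundant member, of the member with the lowest ratio and of that with the highest are shown, LTP1 and LTP2 being lower in FMO5-OE T1 and LTP8 higher. Each sequence is the 250 bases before the start, 5′ to 3′ on the plus strand of TAIR10.1, chr2:16130040-16130289 for LTP1, chr2:16127926-16128175 for LTP2 and chr2:7980282-7980531 for LTP8, and capitals mark ACGTG on either strand.
LTP1: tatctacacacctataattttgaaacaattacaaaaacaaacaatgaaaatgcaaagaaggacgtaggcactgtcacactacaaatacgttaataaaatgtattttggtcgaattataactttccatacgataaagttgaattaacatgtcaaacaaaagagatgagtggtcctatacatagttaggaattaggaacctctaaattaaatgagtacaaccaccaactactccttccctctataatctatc
LTP2: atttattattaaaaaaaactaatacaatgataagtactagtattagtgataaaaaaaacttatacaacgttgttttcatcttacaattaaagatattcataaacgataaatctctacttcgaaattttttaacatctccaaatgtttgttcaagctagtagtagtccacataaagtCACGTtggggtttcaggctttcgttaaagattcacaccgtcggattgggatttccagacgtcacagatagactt
LTP8: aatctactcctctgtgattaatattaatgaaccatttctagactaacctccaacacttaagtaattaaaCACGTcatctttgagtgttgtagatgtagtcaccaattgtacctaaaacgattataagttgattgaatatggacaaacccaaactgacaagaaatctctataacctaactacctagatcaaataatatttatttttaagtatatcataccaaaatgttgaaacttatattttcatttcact
ACGTG is the core of the abscisic acid responsive element. It was found in this window in 2 of the 9 members, LTP2 (74 bases before the start) and LTP8 (181 bases before the start), and in 22.9% of the windows of 27443 protein-coding genes. TAAATGCA or TAAATGTA, the L1 box of epidermal homeodomain factors, was found in 0 of the 9 members and in 4.49% of all windows, both strands being searched. The motifs do not overlap. The annotated transcripts of LTP1, LTP2 and LTP8 are longer than the deposited models, so their starts may differ from those of the models counted.

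Set among all genes, LTP2, LTP5, LTP1 and LTP8 were toward the edges of the distribution without reaching 2-fold. Of the 13019 nuclear loci at 5 CPM or more in the higher library, 0.737% were at least 2-fold higher in FMO5-OE T1 and 0.346% at least 2-fold lower, on the scale of CPM + 1. None of the 9 members was at least 2-fold apart. At a limit of 1.5-fold the background was 3.38% higher and 2.26% lower, and 1 member was past it, LTP2, which was lower. LTP2 was inside this limit with total count CPM (-0.55), with equal nuclear totals (-0.56) and after removal of a trend with length and GC content (-0.57). Of all these loci 1.51% had a lower log2 ratio than LTP2, 4.63% than LTP5, 8.97% than LTP1 and 93.1% than LTP8. Of the 8 detected members 5 lay below 0 and 3 above (LTP3 and LTP6, near 0, turned positive with total count CPM), and of all loci 52.2% lay below 0 and 47.8% above. Over the 7 members that reached 5 CPM the log2 ratio had a median of -0.02, and over all loci of -0.01. With total count CPM these medians were 0.06 for the members and 0.08 for all loci. At a minimum of 20 CPM, which only LTP1, LTP2, LTP5 and LTP8 reached, the median of the members was -0.41. The median near 0 thus depends on the members with few reads.

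Abundant and short transcripts in general had log2 ratios somewhat below 0, and their values stand here beside those of LTP1, LTP5 and LTP2. The 246 nuclear loci within 2-fold of the mean level of LTP1 had a median log2 ratio of -0.15 and a lower quartile of -0.30. For LTP5 it was -0.12 with a lower quartile of -0.28 over 446 loci, and for LTP2 -0.03 with a lower quartile of -0.17 over 3132 loci. The 787 loci of the length range of the members, 596 to 752 bases, had a median of -0.13. Of the loci of like level 17.1% lay below LTP1, 6.50% below LTP5 and 0.990% below LTP2, and 95.02% lay below LTP8. A trend was fitted with the length of the counted model and the GC content of the annotated transcript, which can differ from that model. When this trend was subtracted, the log2 ratio was -0.22 for LTP1, -0.38 for LTP5, -0.57 for LTP2 and 0.50 for LTP8.

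**Figure D4:**
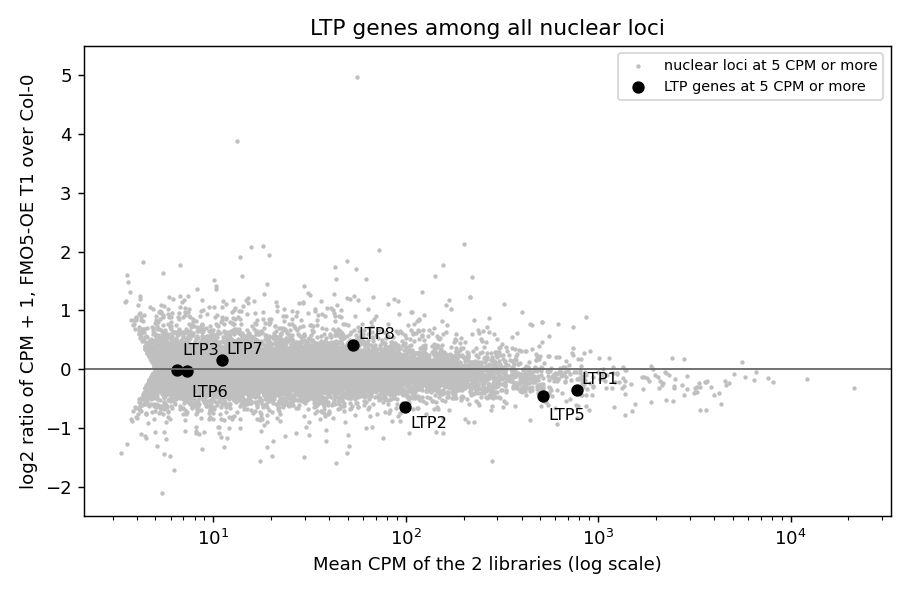
Log2 ratio of CPM + 1, FMO5-OE T1 over Col-0, against the mean CPM of the 2 libraries on a log axis. Grey points are the nuclear loci at 5 CPM or more and black points the 7 LTP genes at that level. LTP2 lies at -0.65 and LTP8 at 0.41, and the grey cloud itself bends below 0 among the most abundant loci, where LTP1 and LTP5 lie.

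By the distance of the 2 log2 levels, the loci closest to LTP2 were the Kunitz trypsin inhibitor gene KTI1 (75.7 CPM in FMO5-OE T1 and 120 CPM in Col-0), AT4G15610 (77.5 CPM in FMO5-OE T1 and 117 CPM in Col-0) and TSO2, a subunit of ribonucleotide reductase (76.6 CPM in FMO5-OE T1 and 114 CPM in Col-0). The distances were 0.0339, 0.0583 and 0.0896. Over 2 libraries this measures only that 2 values are close.

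Most other lipid transfer protein genes had log2 ratios below 0. LTP10 had 22.2 CPM in FMO5-OE T1 and 19.6 CPM in Col-0, a log2 ratio of 0.17, and LTP9 and LTP11 were not listed in either library. All 8 genes of the GPI-anchored and DIR1 or AZI1 types lay below 0 (7 with total count CPM, where LTPG6 turned positive), with a median log2 ratio of -0.70 and a summed level of 624 CPM in FMO5-OE T1 and 962 CPM in Col-0. LTPG1, which carries wax lipids to the cuticle, was at -0.62, LTPG2 at -0.84, LTPG5 at -0.32 and LTPG6 at -0.04. DIR1, a carrier of systemic acquired resistance, was at -0.75, and AZI1, needed for priming by azelaic acid, at -0.65. EARLI1 was at -0.74 and AZI3 at -1.001, the only gene of this list to reach 2-fold, AZI1, EARLI1 and AZI3 being neighbours on chromosome 4. AZI3 was at the edge of this limit, with 111 reads in FMO5-OE T1 and 208 in Col-0. Its fold was 0.473 (0.372 to 0.598), an interval that reached inside 2-fold. Total count CPM, which moves all loci upward, puts it inside the limit. Among the 45 loci outside the 9 members that have lipid transfer in the annotated product and reached 5 CPM, 37 lay below 0 and 8 above, or 34 and 11 with total count CPM. Their median was -0.35, and 7 of them belong to the genes just named. Of all 13019 nuclear loci at 5 CPM or more, 52.2% lay below 0 and 47.8% above. With total count CPM the median of all loci was 0.08.

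Of the markers of the epidermis, the tissue of LTP1, 7 of the 8 at 5 CPM or more lay below 0, with a median of -0.15 (5 of 8 and -0.06 with total count CPM, where PDF2 and FDH turned positive). PDF1, an epidermis-specific cell wall protein, had the highest level among them with 620 CPM in FMO5-OE T1 and 956 CPM in Col-0, a log2 ratio of -0.62. The summed level of all 9 markers was 1454 CPM in FMO5-OE T1 and 1845 CPM in Col-0, and most of that gap was PDF1. Without it the sum was 834 CPM in FMO5-OE T1 and 889 CPM in Col-0, a ratio of 0.939, or 1.003 with total count CPM. The receptor kinase gene ACR4 and the wax genes CER6 and CER5 were at -0.29, -0.28 and -0.16, while ATML1, the homeodomain factor that specifies the epidermis, was at 0.25. The fold of ATML1 was 1.20, with an interval that held 1 (0.992 to 1.45). CER5 and CER6 belong to both the epidermis list and the cutin and wax list, so both counts hold them. Of the cutin and wax genes 24 of 26 at 5 CPM or more lay below 0, or 20 with total count CPM. Their median was -0.25, none was 2-fold apart, and the largest in size were KCS1 (-0.65), GPAT8 (-0.50) and CYP86A2 (-0.48). Of the 8 root markers 6 lay above 0, or 7 with total count CPM, with a median of 0.15, and the largest in size were PRP3 (0.41), RHD6 (0.40) and EXPA7 (0.29). With TMM scaling the fold intervals of RHD6 (0.966 to 2.02) and EXPA7 (0.994 to 1.56) held 1. Beyond counting error, PRP3 (1.24 to 1.43) and PYK10 (1.08 to 1.10) were higher and CASP1 (0.780 to 0.951) was lower. Of all 13019 nuclear loci at 5 CPM or more, 52.2% lay below 0 and 47.8% above. The median of all loci was -0.01, and 0.08 with total count CPM, a scaling that moves all loci upward. Whether the genes of these lists differ from loci of like level was not tested. In RNA of whole seedlings, fewer cells of a type and less RNA per cell cannot be told apart. The part of epidermal and root marker levels in the values of LTP1, LTP2, LTP5 and LTP8 was not tested.

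**Figure D5:**
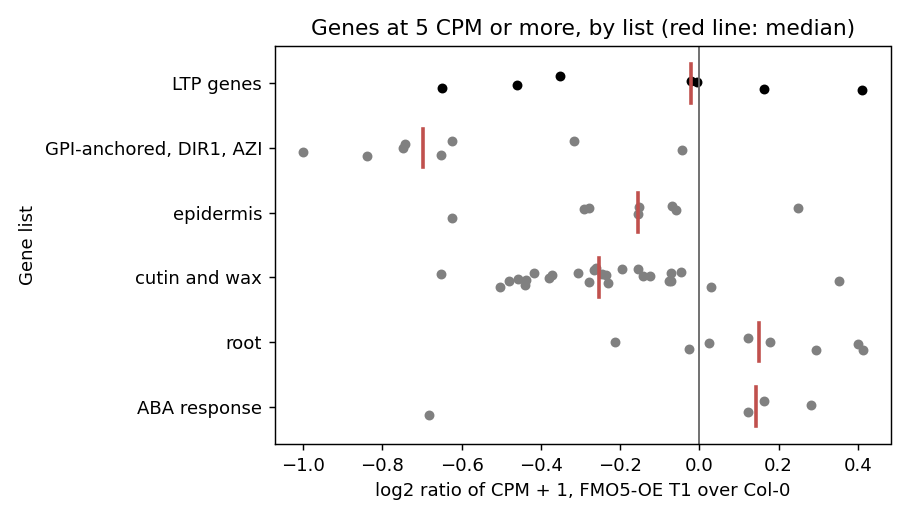
Log2 ratio of CPM + 1, FMO5-OE T1 over Col-0, of the genes at 5 CPM or more in 6 lists, 1 point per gene and a red line at the median. The numbered LTP genes (black) spread from -0.65 to 0.41 with a median of -0.02, all GPI-anchored and DIR1 or AZI1 type genes lie below 0 (7 of 8 with total count CPM), and epidermis and cutin and wax genes have medians of -0.15 and -0.25. Of all nuclear loci at 5 CPM or more, 52.2% lie below 0.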

How the data were processed

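The deposited values were read counts of each transcript model, in whole numbers, with the model's length, coverage and RPKM, per the file headers. Per the submitters' processing notes, TAIR10 was used. Aligner, counter and use of strand were not given in the sources used here. Models without reads are not listed. Models with a single read were covered over 49 bases, which was taken as the read length. Counts were summed per locus and scaled with TMM (edgeR 4.0.16 in R 4.3.3), with factors of 1.03 for FMO5-OE T1 and 0.967 for Col-0. DESeq2 1.42.0 size factors, total count CPM, equal nuclear totals, pseudocounts of 0.1 and 5, the model with most reads, other minimums and limits, and removal of a trend over length and GC content were alternatives. Log2 ratios are of CPM + 1, FMO5-OE T1 over Col-0, and understate differences at low levels. Folds are ratios of CPM without a pseudocount, with Clopper-Pearson intervals. The calculation was tested on simulated data. Names, coordinates and sequences came from the RefSeq annotation of TAIR10.1, an update of TAIR10, which held all 9 loci, and LTP8 is named there by its locus only. Python 3.11.15, pandas 2.3.3, scipy 1.17.1, Biopython 1.88 and matplotlib 3.10.9 were used.

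The rule for named genes was all 9 members, FMO GS-OX5, every gene of the lists of other lipid transfer proteins, the 3 genes with the largest log2 ratio in size at 5 CPM or more of the other lists, and the 3 loci closest in level to the member with the largest ratio. CER5, ATML1, PDF2, FDH, HAI1, PYK10, CASP1, the tapetum markers without reads, AT2G38550 and TFIIS were named in addition, after their values were seen. The members and lists were chosen with earlier results of these data known. No test between genotypes was possible with 1 library each, and intervals cover counting error only.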

Additional observations from a re-analysis of the deposited data

How the results depend on the processing

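No paired analysis was possible because each genotype has a single library. LTP1, LTP2, LTP4, LTP5, LTP7 and LTP8 kept their sign under all 7 alternatives run for each, and LTP3 and LTP6, close to 0, did so under 3 and 4 of 7. Total count CPM, equal nuclear totals and removal of the length and GC trend gave log2 ratios of -0.29, -0.30 and -0.26 for the sum of LTP1 and LTP2, -0.36, -0.37 and -0.38 for LTP5 with LTP12, and -0.28, -0.28 and -0.27 for the sum of all members. Under these 3 settings 3 members lay below 0, and so did 3 at a minimum of 20 CPM. The first 2 move the median of all loci by 0.094 and 0.087, and the fewer members above 20 CPM account for the fourth. The fitted trend was -0.052 for LTP3 and -0.14 for LTP6, and after its removal their log2 ratios were 0.039 and 0.099. Where the trend itself comes from was not tested. Under the same 3 settings LTP2 was inside the 1.5-fold limit, at -0.55, -0.56 and -0.57. The numbers of loci at least 2-fold higher and lower were 42 and 17 when the pseudocount was 5, 56 and 21 at a minimum of 20 CPM, and 440 and 294 at a limit of 1.5-fold. Their split of 68.1% higher was 81.4% with total count CPM and 80.0% with equal nuclear totals. Depth limits LTP3, LTP4, LTP6 and LTP7, which had 36 to 148 reads per library.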
